A study of Rattus norvegicus with 12 samples.

Results

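Bhlhe40 and Bhlhe41, also known as Dec1 and Dec2, were each read by the 1 probe that could be named for them. Both are described here in 12 lung samples of rats given silica or saline. They are 2 of the 1101 genes that could be named, and the probes read are 2 of the 51255 on the array. Any other probe of either gene could not be named, so it was not examined. The names came from the study's list of transcripts that differed between silica and saline at day 28, so both genes were chosen by their values at day 28. Values of day 28 are therefore given as a description, with no test. Only the contrast of day 14, whose arrays that list did not use, was tested. The pair was also chosen with earlier results of these data known, so that test cannot be taken as independent of the choice. The fit took its estimate of the spread from all 12 arrays, those of day 28 included. The study asked which lung transcripts and proteins change in experimental silicosis, the scarring lung disease caused by crystalline silica dust. Only its transcript arrays were used here. Male Wistar rats received a single 1 mL instillation into the trachea of either saline or silicon dioxide at 50 mg/mL, which some labels give as 50 mg/kg. The 4 groups of 3 samples were saline at day 14, silica at day 14, saline at day 28 and silica at day 28, with 1 array per sample. Age at tissue collection and the hour of collection were not given in the sources used here. The titles and time points of the day 14 arrays say 14 days, their description says 28 days and the study's methods describe day 28 only, so the day 14 groups were taken from the titles. The methods state that lungs were selected by their histological changes. RNA came from whole lung, so more cells of a type and more RNA per cell cannot be told apart.

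Both proteins are transcriptional repressors with a basic helix-loop-helix region followed by an Orange domain. They bind E-box sequences, above all the palindrome CACGTG, and in the circadian clock they repress genes that the activators CLOCK and BMAL1 switch on, including their own. Both genes are known to be induced through hypoxia-inducible factor and by many other signals. In the mouse lung, alveolar macrophages are known for their expression of both genes, which act there in self-renewal and cell identity. None of this background was measured here.

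Both genes lie on chromosome 4 of the RefSeq annotation of assembly GRCr8. The following are the first 30 of the 60 bases of each probe, shown because every value below is the brightness of these spots. No other probe on the array had either sequence.

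Bhlhe40 probe A_43_P12768, for transcript NM_053328: ttttgtgactagcttactacggaaccgaaa

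Bhlhe41 probe A_43_P15357, for transcript XM_002729454: gaaatgtttgcactttggtcacaatgcttc

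The promoters are shown because the E-box that the 2 proteins bind is present in both of their own genes. Each covers 250 bases before to 50 bases after the annotated start, from RefSeq on GRCr8 and in the direction of transcription, with CACGTG in capitals. Bhlhe40 is on the + strand at chr4:143174200-143174499 and Bhlhe41 on the - strand at chr4:180569306-180569605.

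Bhlhe40 promoter: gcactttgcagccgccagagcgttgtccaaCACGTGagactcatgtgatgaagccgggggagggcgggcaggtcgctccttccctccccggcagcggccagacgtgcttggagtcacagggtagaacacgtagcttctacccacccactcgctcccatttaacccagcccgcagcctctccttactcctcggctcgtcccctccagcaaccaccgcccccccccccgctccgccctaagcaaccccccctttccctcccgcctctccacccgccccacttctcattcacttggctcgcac

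Bhlhe41 promoter: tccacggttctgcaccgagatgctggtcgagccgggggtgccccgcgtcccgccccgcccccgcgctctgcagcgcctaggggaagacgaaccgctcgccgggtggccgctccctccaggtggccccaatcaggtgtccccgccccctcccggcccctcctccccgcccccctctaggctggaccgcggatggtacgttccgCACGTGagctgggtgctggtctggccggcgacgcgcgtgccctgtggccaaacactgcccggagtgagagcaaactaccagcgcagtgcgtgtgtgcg

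Searched on both strands, CACGTG occurred 1 time in each promoter, beginning 220 bases before the start in Bhlhe40 and 48 bases before it in Bhlhe41. It was present in 6.42% of the 33469 RefSeq promoters of the same length. It was present in 3 of the 19 promoters of clock genes on file. The shorter ACGTG, a form of the core of the element bound by hypoxia-inducible factor, had 4 matches in Bhlhe40 and 2 in Bhlhe41. Other forms of that core were not counted, so the 2 promoters are not compared by it. Because CACGTG holds ACGTG on each strand, 2 matches in each promoter belong to it. ACGTG was present in 19.3% of all promoters. AGGTCA, the half-site of the ROR and REV-ERB receptors, was in neither window and in 16.2% of all promoters. These matches describe the letters only, since binding was not measured.

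The following values are log2 processed signals after quantile normalization over the 12 arrays, and each lists replicates 1, 2 and 3 in that order. Neither probe was saturated, and on each of the 12 arrays both stood well above background. Bhlhe40 read 7.72, 7.52 and 8.04 in saline at day 14 and 9.52, 8.66 and 8.98 in silica at day 14. It read 8.27, 8.02 and 7.65 in saline at day 28 and 9.27, 8.96 and 8.99 in silica at day 28. Every silica array was thus above every saline array, of either day. Bhlhe41 read 8.55, 7.25 and 7.79 in saline at day 14 and 11.66, 10.53 and 10.75 in silica at day 14. It read 8.51, 8.74 and 8.11 in saline at day 28 and 11.98, 11.75 and 11.77 in silica at day 28. Again no silica array came down to a saline array, and the gap was wider than for Bhlhe40.

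**Figure D1:**
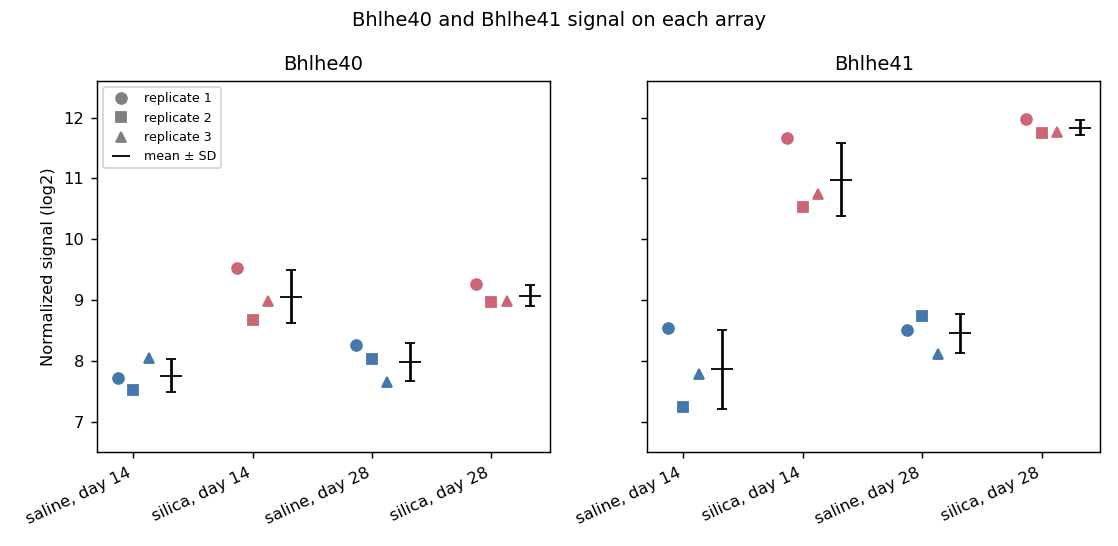
Normalized log2 signal of Bhlhe40 (left) and Bhlhe41 (right) on each of the 12 arrays, by group, with replicates as separate markers and the mean ± SD of 3 arrays in black. All silica arrays lie above all saline arrays in both panels, and heights should not be compared between the panels because probes differ in brightness.

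On the deposited linear scale, before normalization between arrays, the Bhlhe40 spot read 192 to 267 in saline and 422 to 636 in silica at day 14, and 238 to 304 in saline and 471 to 585 in silica at day 28. The Bhlhe41 spot read 161 to 438 and 1528 to 3018 at day 14, and 323 to 502 and 3323 to 3945 at day 28, saline first. The separation was therefore already present before the arrays were normalized.

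At day 14, Bhlhe40 rose 2.455-fold in silica, from a mean of 7.76 ± 0.27 (SD, n = 3) to 9.06 ± 0.43 (SD, n = 3) on the log2 scale. The difference was 1.30 with a standard error of 0.23 and an adjusted p of 0.00591 (limma, Benjamini-Hochberg over 34097 probes). The closest silica and saline arrays were still 0.62 apart. Bhlhe41 rose 8.685-fold, from 7.86 ± 0.65 (SD, n = 3) to 10.98 ± 0.60 (SD, n = 3). The difference was 3.12 with a standard error of 0.34 and an adjusted p of 0.000485 (limma). The closest arrays were 1.98 apart. With the 6 arrays of day 14 fitted alone, the adjusted p values were 0.0266 for Bhlhe40 and 0.00951 for Bhlhe41 (limma). For both genes the exact two-sided permutation test of 3 against 3 arrays gave p = 0.1, the smallest it allows. The labels number the day 14 samples as replicates without saying that each is a separate rat, so these p-values measure only the spread between samples, which may be technical.

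To be called, a probe needed a fold of 2 or more together with an adjusted p of 0.05 or less. Of the 34097 probes tested at day 14, 2.87% were called higher in silica and 2.77% lower. Both Bhlhe genes were among those called higher. Genes of the day 28 list passed far more often, as 26.2% of the 1100 named genes with a tested probe were called higher. Leaving out silica day 14 replicate 1 changed the counts over all probes from 978 higher and 946 lower to 810 and 315, with both genes still called. Bhlhe40 stood within the upper tail of all probes tested, as 672 probes (1.97%) had a larger rise. Bhlhe41 stood near its end, as 54 probes (0.158%) had a larger rise. Leaving out each day 14 array in turn gave differences of 1.06 to 1.49 for Bhlhe40 and 2.77 to 3.47 for Bhlhe41, with highest adjusted p values of 0.0262 and 0.0039 (limma).

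**Figure D2:**
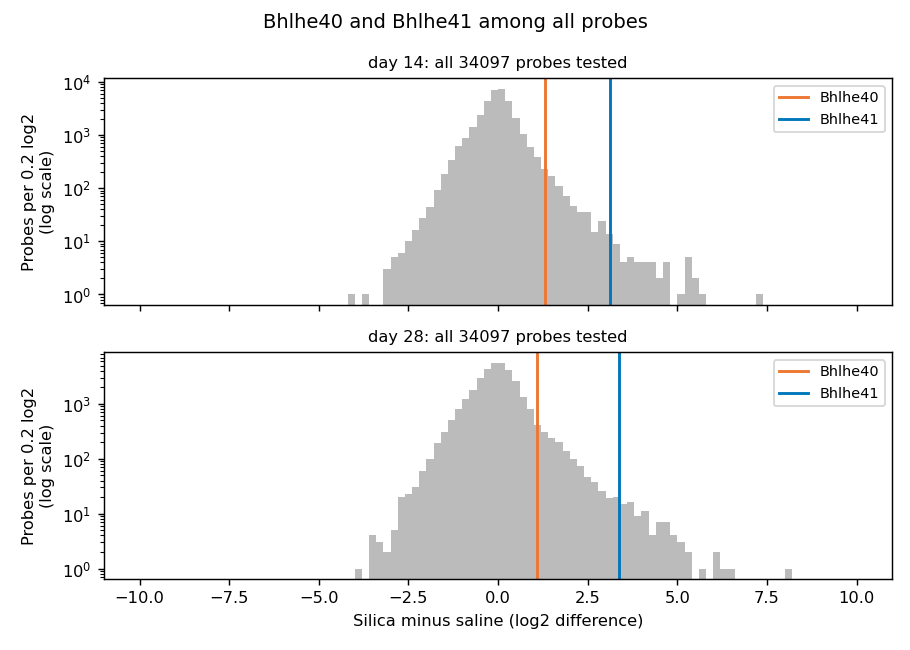
Number of probes (log scale) by silica minus saline log2 difference, in bins of 0.2, for the 34097 probes tested at day 14 (top) and day 28 (bottom), with Bhlhe40 and Bhlhe41 as vertical lines. At day 14 the lines stand at 1.30 and 3.12, with 672 and 54 probes further to the right.

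Bhlhe41 rose further than Bhlhe40 at day 14. The difference between their log2 rises was 1.82 with a standard error of 0.38. Taken within each array, the signal of Bhlhe41 minus that of Bhlhe40 was at least 1.77 in the silica samples and at most 0.83 in the saline samples. The exact permutation test on these differences gave p = 0.1, the smallest it allows with 3 against 3 arrays.

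At day 28, the time at which the genes were chosen, the means were 7.98 ± 0.31 and 9.07 ± 0.17 (SD, n = 3) for Bhlhe40 and 8.45 ± 0.32 and 11.83 ± 0.12 (SD, n = 3) for Bhlhe41, saline first. The differences were 1.09 with a standard error of 0.23 for Bhlhe40, or 2.13-fold, and 3.38 with a standard error of 0.34 for Bhlhe41, or 10.4-fold. Of all probes, 4.74% passed the same limits as higher and 5% as lower at day 28, and 1514 probes (4.44%) rose more than Bhlhe40 and 87 (0.255%) more than Bhlhe41. Nothing is read from these counts, because this contrast picked the genes. Bhlhe40 lay just inside the 2-fold limit. The 3 silica arrays of day 28 shared a slide with saline replicate 1 of that day, and the other 8 arrays, including every array of day 14, were on the other slide. Against that saline array alone, which gives no saline spread, the silica mean was higher by 0.80 for Bhlhe40 and by 3.32 for Bhlhe41. The fit with slide as a block gave the same values, with standard errors of 0.32 and 0.51, which put Bhlhe40 under the 2-fold limit. It was also under that limit without saline day 28 replicate 3, at 0.93, and without silica day 28 replicate 1, at 0.99.

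In order of mean signal both genes ran from saline at day 14 through saline at day 28 and silica at day 14 to silica at day 28. Neighbours in that order overlapped, except between saline and silica and, for Bhlhe41, between the highest silica array of day 14 at 11.66 and the lowest of day 28 at 11.75. The silica means of the 2 days differed by 0.02 for Bhlhe40 and 0.85 for Bhlhe41, and the saline means by 0.22 and 0.59, each as day 28 minus day 14. The silica minus saline difference changed by -0.21 (standard error 0.33) for Bhlhe40 and by 0.26 (standard error 0.49) for Bhlhe41 from day 14 to day 28. These comparisons contain the arrays that chose the genes and were not tested.

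Over the 12 deviations from the group means, Bhlhe40 and Bhlhe41 had a Pearson's r of 0.678 and a Spearman's rho of 0.755. This is a description with no test, because 6 of the 12 arrays are those of day 28 that chose both genes. Without saline day 28 replicate 1 and silica day 14 replicate 1, the arrays farthest from the median in Bhlhe40, r was 0.561. Silica day 14 replicate 1 was high in both genes, by 0.47 and 0.68. Saline day 14 replicate 1 was high in Bhlhe41 by 0.69 and close to its mean in Bhlhe40, at -0.04.

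**Figure D3:**
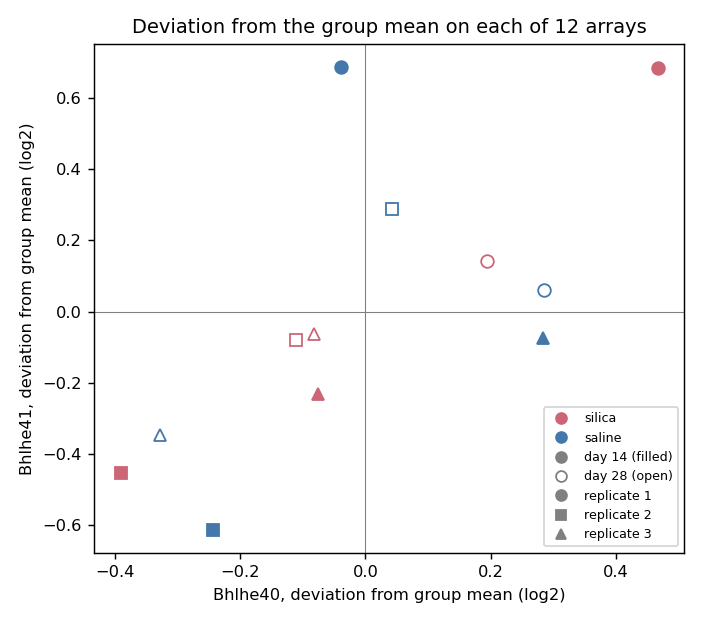
Deviation of each of the 12 arrays from its group mean in log2 signal, Bhlhe40 on the horizontal axis and Bhlhe41 on the vertical axis, coloured by treatment, filled for day 14 and open for day 28, with a marker shape for each replicate number. The points rise to the right (r 0.678), and silica day 14 replicate 1 is at the top right.

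The partner genes of the clock could be followed only where the readable rows of the study's day 28 list named them, which was 7 of 24 clock and clock output genes. At day 14, 0 of the 7 were called higher and 1 lower, and 6 were not called. Among the 1100 named genes with a tested probe, 26.2% were called higher at day 14 and 20.6% lower. The median log2 difference of the 7 clock genes was -0.29, beside 0.36 over those named genes and -0.01 over all probes tested. The gene called lower was Ciart, which encodes CHRONO, another repressor of CLOCK and BMAL1. It read 3.89, 4.22 and 3.64 in saline and 1.63, 2.24 and 1.62 in silica at day 14. The silica arrays lay below the saline arrays, but Ciart cleared background on 2 of the 3 saline arrays and on none of the silica arrays. The fall is therefore a bound, at least 1.06-fold, which is under the 2-fold limit. The adjusted p of 0.00363 (limma) belongs to the difference of -2.09 between the values as read, so the call rests on silica values not above background. Bounds of this kind set the mean of the brighter group against the dim probe or the dimmest probe above background on each array, whichever was higher.

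Nr1d1, which encodes the REV-ERB alpha repressor, read 8.57, 8.12 and 9.56 in saline and 8.15, 6.71 and 8.93 in silica at day 14. These groups overlapped, and the difference of -0.82 (standard error 0.63, adjusted p 0.426, limma) did not pass. At day 28 it read 11.15, 11.12 and 10.35 in saline and 6.73, 8.72 and 8.35 in silica, which is a difference of -2.94 with no overlap. The saline mean of Nr1d1 was 2.12 higher at day 28 than at day 14, while the silica means of the days differed by 0.0043. In this gene the saline samples of the 2 days were further apart than those of Bhlhe40 (0.22) or Bhlhe41 (0.59).

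The day 14 differences of the other clock genes were -0.29 for Nr1d2, which encodes REV-ERB beta, 0.04 for the period gene Per3, 0.13 for Dbp and -0.46 for Hlf, both PAR-domain activators of clock output, and -0.03 for Nfil3, which encodes a repressor of the same sites. None of these 5 was called, with adjusted p from 0.336 to 0.968 (limma), and their groups overlapped. At day 28 the differences were -1.41, -1.02, -1.11, -1.57 and 1.04 in the same order. All 7 had been picked at day 28, where 6 were lower and 1, Nfil3, was higher, so those directions are a description only. Ciart cleared background on none of the silica arrays of day 28, and its bound there was under 1-fold, so no fall is shown. Bhlhe40 and Bhlhe41 were higher in silica at both days, while 6 of the 7 clock genes were past the limits only at day 28. Genes of the day 28 list were often not called at day 14, as 585 of the 1100 named genes with a tested probe were not. The difference between days was not tested.

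**Figure D4:**
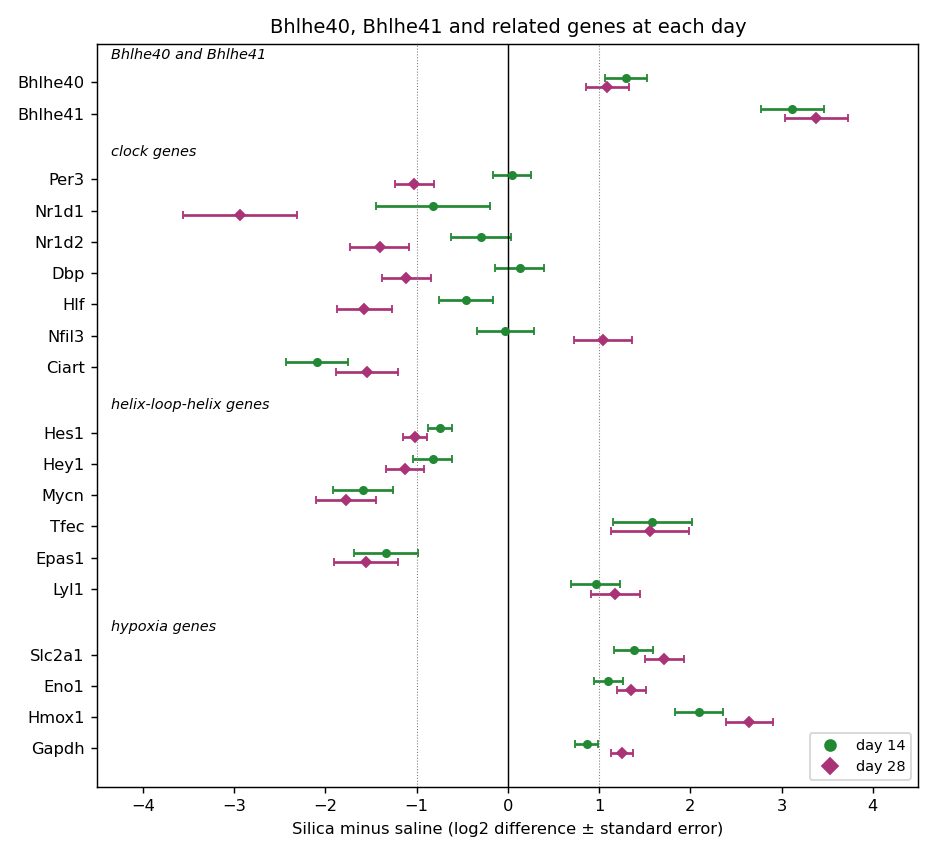
Silica minus saline log2 difference ± standard error from the limma fit at day 14 (green circles) and day 28 (purple diamonds) for Bhlhe40, Bhlhe41 and the named clock, helix-loop-helix and hypoxia genes, with dotted lines at a 2-fold change. The pairs of points for Bhlhe40 and Bhlhe41 lie close together on the right, whereas those of Nr1d1 are at -0.82 and -2.94; Ciart was not well above background in silica.

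Of 69 other helix-loop-helix genes, 6 could be named. At day 14, 1 was called higher, 2 lower and 3 were not called, and the median log2 difference was -0.78. Of all 1100 named genes with a tested probe, 26.2% were called higher and 20.6% lower at day 14, with a median of 0.36. With 6 genes, no departure from those shares is read. Tfec, of the MiT family and known from macrophages, rose by 1.58 (standard error 0.43, adjusted p 0.0314, limma). It read 4.76, 3.42 and 4.19 in saline and 6.54, 5.28 and 5.30 in silica. Epas1, which encodes the hypoxia-inducible factor HIF-2 alpha and is abundant in lung endothelium, fell by 1.33 (standard error 0.35, adjusted p 0.0287, limma). It read 15.24, 15.02 and 15.29 in saline and 12.99, 14.40 and 14.15 in silica, again without overlap. Mycn, a growth-related factor, fell by 1.59 (adjusted p 0.0106, limma). The Notch-responsive repressors Hes1 and Hey1, which have an Orange domain like the Bhlhe proteins, differed by -0.74 and -0.82, and Lyl1 by 0.96. These 3 had adjusted p values of 0.00567, 0.0252 and 0.0349 (limma) with less than a 2-fold change. Bhlhe40 and Bhlhe41 thus differed in sign at day 14 from Hes1 and Hey1. With another background correction, with no filter on dim probes, with the filter on all arrays or with the day 14 arrays alone, and without saline day 14 replicate 2, saline replicate 3 or silica replicate 1, the count of called genes was 1 in place of 3.

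Of 30 genes known as targets of hypoxia-inducible factor, 4 could be named. At day 14, 3 were called higher, 0 lower and 1 was not called, with a median log2 difference of 1.24. Hmox1, heme oxygenase, rose by 2.09 (adjusted p 0.000911, limma), from 9.40, 8.66 and 9.64 in saline to 11.73, 11.20 and 11.05 in silica. The glucose transporter Slc2a1 rose by 1.38, or 2.605-fold, and the glycolytic enzyme Eno1 rose 2.14-fold (adjusted p 0.00286 and 0.00206, limma). Gapdh, another glycolytic enzyme, differed by 0.86 (adjusted p 0.00185, limma), under the 2-fold limit. For reading these counts, 288 of all 1100 named genes with a tested probe (26.2%) were called higher at day 14 and 227 (20.6%) lower, since every named gene came from the day 28 list.

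Most of the macrophage genes that could be named were higher in silica, as both Bhlhe genes were. Of 27 macrophage genes 10 could be named, and at day 14, 9 were called higher, 0 lower and 1 was not called. Of all named genes, 26.2% were called higher at day 14. With the filter on all 12 arrays, 6 of 7 macrophage genes were called higher, and with no filter 8 of 10. The summed normalized signal of the 10 ranged from 2246 to 3433 over the saline arrays and from 17891 to 28015 over the silica arrays of day 14. At day 28 it ranged from 3000 to 3285 and from 27469 to 32178. Among them the lysosomal marker Cd68 rose by 2.82, the lipid receptor Trem2 by 4.25, Gpnmb by 3.97 and the fatty acid binding proteins Fabp4 and Fabp5 by 5.33 and 2.99 on the log2 scale at day 14. Fabp4 was well above background on 1 of the 3 saline arrays of day 14. Atp6v0d2, a proton pump subunit, and the protease Ctsk were not well above background on any saline array, and rose at least 17.2-fold and at least 2.32-fold. Csf2rb, a receptor subunit for GM-CSF, rose by 1.68 and the transcription factor Maf by 1.11. Lipoprotein lipase, Lpl, differed by 0.19 and was not called. The part of macrophage number in the rise of Bhlhe40 and Bhlhe41 was not tested.

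Markers of other cells moved as well. For reading their counts, 26.2% of all named genes were called higher at day 14 and 20.6% lower. Only genes of the day 28 list could be named, so the counts are not rates for a cell type. Of 10 genes listed for neutrophils 2 could be named, and both, Lcn2 and Mmp9, were called higher at day 14. Their summed signals were 2028 to 3004 in saline and 33999 to 79807 in silica. Lcn2 made up most of the silica sum, with a log2 mean of 15.61 against 6.98 for Mmp9. No change in neutrophil number is read from these 2 genes. Of 9 endothelial genes 6 could be named, and 5 were called lower at day 14, with summed signals of 29454 to 35869 in saline and 9077 to 18873 in silica. The log2 differences of those called were -2.06 for Plvap, -1.46 for Ace, -1.45 for Tek, -1.34 for Thbd and -1.13 for Cdh5, while Vwf, at -1.07 (adjusted p 0.0771, limma), was not called. Of 5 alveolar type 1 genes 2 could be named, of which Rtkn2 was called lower and Aqp5, at -0.93, was not. The airway gene Bpifb1 was called higher, and the T cell gene Cd8a and the collagen gene Col1a1 were not called. The 7 alveolar type 2 genes had no named probe, so these defining markers of the lung were not analysed here. The part of these cells in the values of Bhlhe40 and Bhlhe41 was not tested.

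Among the named genes, those whose signal was most like that of Bhlhe40 over the 12 arrays were Hk3 (r 0.962), a hexokinase, Ninj1 (0.961), which acts in the rupture of the plasma membrane, Lrmda (0.96), the creatine kinase Ckb (0.96) and the matrix protease Mmp19 (0.959). For Bhlhe41 they were Phyhd1 (0.994), the sphingomyelin synthase Sgms2 (0.993), Tgfbr1 (0.99), a receptor for TGF-beta, the lysosomal protease Ctsz (0.99) and Smpdl3a (0.988). The 2 sets had no gene in common. These correlations are over 1098 named genes, all selected for a difference between silica and saline at day 28, so a high r largely repeats the group difference.

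With the group means taken out, the genes most like Bhlhe40 over the 12 arrays were Ly96 (r 0.943), the partner of TLR4, Tmem176b (0.938), Mfsd12 (0.89), the amino acid enzyme Bcat1 (0.881) and Cd83 (0.881), found on dendritic and other immune cells. For Bhlhe41 they were the macrophage marker Cd68 (0.951), Ctsz (0.946), Serpina3n (0.942), the survival gene Bcl2a1 (0.931) and the chemokine receptor Ccr1 (0.922). Ctsz was thus in both lists of Bhlhe41. The clock genes were not among them, and their r of deviations ran from -0.399 for Nfil3 to 0.728 for Per3 with Bhlhe40, and from -0.146 for Ciart to 0.491 for Nr1d2 with Bhlhe41. These are descriptions over 12 arrays of whole lung, picked as the highest of many.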

How the data were processed

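Cy3-labelled lung cRNA of each sample was hybridized to its own single-colour Agilent array. The authors read the slides with Agilent Feature Extraction 10.7.1.1 and deposited background-corrected spot intensities, not normalized between arrays, and a table of log2 signals that their methods describe as quantile normalized. That table served as an alternative. Each array held 62972 spots, of which 1439 were controls. Dropping controls and flagged outliers and averaging the spots of a probe gave 51255 probes, of which 60.5% to 69.5% were well above background per array. Quantile normalization of log2 intensities was done across the 12 arrays. A probe had to exceed background clearly on every array of some group, and the 34097 that did were fitted with limma 3.58.1 in R 4.3.3 as 4 groups in 1 fit, tested on simulated data, with Benjamini-Hochberg adjustment. Other steps used scipy 1.17.1, numpy 2.4.6, pandas 2.3.3 and matplotlib 3.10.9 in Python 3.11.15. The number of arrays limits the precision.

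The deposited arrays give probe identifiers without gene names. Names came from 1279 readable rows of the study's day 28 list, whose probe sequences all equalled those on the arrays, and 1051 of whose gene IDs matched RefSeq. The genes named are Bhlhe40 and Bhlhe41, every named gene of the lists given, and the 5 genes most correlated with each by signal and by deviation. With several probes the brightest was used. Gene lists and members were chosen with earlier results of these data known. The alternatives were another background correction, scaling or filter, the authors' table, slide or replicate number as a block, each day alone and leaving out each array.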

Additional observations from a re-analysis of the deposited data

How the results depend on the processing

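The day 14 rises of Bhlhe40 and Bhlhe41 kept their direction and passed the adjusted p and the 2-fold limit under every alternative run, with Bhlhe40 between 1.06 and 1.49 and Bhlhe41 between 2.76 and 3.47 on the log2 scale. With normexp background correction, 736 probes were called at day 14 in place of 1924, and 61.1% of them were higher in place of 50.8%. At day 28 it gave 1315 in place of 3322, with 60.3% higher in place of 48.7%, a share that was 64.7% with slide as a block, and it gave Bhlhe40 a day 28 difference of 0.87. That is under the 2-fold limit, as were the values with slide as a block (0.80), without saline day 28 replicate 3 (0.93) and without silica day 28 replicate 1 (0.99). Leaving out single arrays gave 1125 to 2590 probes at day 14, the lowest without silica day 14 replicate 1. The count of clock genes called at day 14 was 0 with normexp, with the filter on all 12 arrays and with the 6 arrays of the day alone. The count of helix-loop-helix genes was 1 with normexp, with no filter, with the filter on all 12 arrays and with the 6 arrays alone, and 1 to 4 when single arrays were left out. The causes were not tested. Leaving out saline day 14 replicate 1 turned the day 28 minus day 14 difference of Bhlhe41 from 0.26 to -0.08, and leaving out silica day 14 replicate 1 turned that of Bhlhe40 from -0.21 to 0.03. The labels state no pairing by replicate number. Over all probes tested, deviations of same-numbered silica and saline arrays correlated at -0.167 to 0.0729, and those of differently numbered arrays at -0.209 to 0.189. This cannot exclude a pairing in single genes. A replicate block lowered the standard error of the day 14 rise from 0.34 to 0.16 for Bhlhe41 and from 0.23 to 0.19 for Bhlhe40. With the number as a replicate block, 1691 probes were called at day 14 and 3173 at day 28, and both genes were still called at day 14 (adjusted p 0.015 and 0.000654, limma).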
